A study of Homo sapiens with 21 samples.

Results

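Cyclin E, its kinase and the SCF ubiquitin ligase that marks it were followed through 8 genes chosen by name: CCNE1, CCNE2, CDK2, FBXW7, SKP2, CUL1, RBX1 and SKP1. Each gene was read from 1 probe set, and they were 8 of 18374 genes with their own symbol on the array (26947 probe sets). All cells were U-87MG, an established human glioblastoma line. Of 6 stable clones, V8, V17 and V22 carried the empty vector and PK7, PK19 and PK25 carried parkin. Every line was a single clone, so what belongs to parkin and what belongs to a clone cannot be told apart within 1 line. The promoter driving parkin is not given in the sources used here, and parkin's own transcript was not analysed here. The 21 arrays fell into 2 series, as read from the prefixes of the array file names: 9 vector arrays in the first, and 9 parkin arrays with 3 further V22 arrays in the second. Limma called 0 of the 8 genes between the V22 arrays of the series (background 0.0297%). Each clone had 3 arrays per series, called sets 1 to 3, and V22 had sets 4 to 6 in the second series. Levels are log2 of RMA intensity, so a difference of 1 is a doubling, and each clone is compared with V22 of its own series.

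Cyclin E is the regulatory partner of the kinase CDK2, and the pair drives cells into DNA replication. Its level falls again because an SCF ligase attaches ubiquitin to it: the cullin CUL1 is the scaffold, the RING protein RBX1 brings in the conjugating enzyme, SKP1 is the adaptor, and an F-box protein picks the substrate. FBXW7 is the F-box protein for phosphorylated cyclin E, and SKP2 takes the CDK inhibitor p27 and free cyclin E. Parkin, itself a RING-type ubiquitin ligase, has been described as working with FBXW7 and CUL1 on cyclin E. Control of cyclin E by these proteins acts on protein, which arrays do not measure.

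The 250 bases ahead of the start of CCNE1, SKP2 and RBX1 are shown because CCNE1 is the cyclin whose level varied least and the other genes are ligase subunits that differed between parkin clones (RefSeq, GRCh38.p14, 5′ to 3′). Capitals mark the GC box GGGCGG, read on both strands, and the E-box CACGTG.
CCNE1, chr19:29811741-29811990, + strand: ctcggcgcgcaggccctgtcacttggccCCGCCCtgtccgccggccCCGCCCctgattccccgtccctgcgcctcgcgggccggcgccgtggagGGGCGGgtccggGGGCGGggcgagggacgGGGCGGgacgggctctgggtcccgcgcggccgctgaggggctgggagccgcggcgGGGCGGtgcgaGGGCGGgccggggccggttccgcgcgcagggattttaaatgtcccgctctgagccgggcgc
SKP2, chr5:36151861-36152110, + strand: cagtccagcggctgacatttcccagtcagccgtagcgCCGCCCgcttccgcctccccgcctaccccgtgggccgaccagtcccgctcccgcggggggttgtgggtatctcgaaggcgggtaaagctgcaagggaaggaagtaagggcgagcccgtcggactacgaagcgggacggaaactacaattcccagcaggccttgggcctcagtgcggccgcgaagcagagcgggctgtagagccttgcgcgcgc
RBX1, chr22:40951128-40951377, + strand: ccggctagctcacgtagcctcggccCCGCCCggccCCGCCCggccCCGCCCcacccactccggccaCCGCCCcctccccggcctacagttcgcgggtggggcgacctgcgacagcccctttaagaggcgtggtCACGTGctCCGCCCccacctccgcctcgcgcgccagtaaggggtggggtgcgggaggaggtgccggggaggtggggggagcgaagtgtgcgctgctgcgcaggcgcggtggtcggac
The GC box was present 7 times ahead of CCNE1, 5 times ahead of RBX1, and 1 time ahead of SKP2. It occurs in 42.6% of the 35116 promoters in the table. The E-box was found 1 time, ahead of RBX1, against 6.34% of all promoters. Of the 8 genes, 6 matched the table, with 13 start sites in all, and CCNE2 and CDK2 had no entry. The letters TTTCCCGC, TTTCGCGC, TTTGCCGC and TTTGGCGC, forms of the E2F motif searched on both strands, were in none of these 13 windows, against 2.79% of all promoters. A match or its absence describes the letters in these windows only.

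Array medians lay between 6.21 and 6.37, the highest being those of PK25 set 3 (6.37) and PK7 set 2 (6.36). V17 differed from V22 at 0 of 26947 probe sets by limma, with 2.71% at an unadjusted p under 0.05. The glioma markers VIM (12.76), FN1 (12.80) and CD44 (11.84) were high, while GFAP (6.29) and OLIG2 (5.66) were low. A mean of at least 7 was reached by 8 of 13 glioma, 1 of 7 epithelial, 1 of 6 blood, 1 of 7 endothelial and 1 of 7 neuronal markers. EPCAM (4.85), PTPRC (3.12), PECAM1 (4.75) and VWF (4.56) were dim. The markers outside the glioma list that reached 7 were KRT18 (7.70), KDR (7.84), SNAP25 (7.93) and the blood marker CD68, which was high (11.32). Single markers still differed from V22: the endothelial receptor gene KDR was lower in V8 (-1.05), PK7 (-2.26), PK19 (-2.65) and PK25 (-1.77), the dim TEK fell by 0.91 in PK19, and the dim PECAM1, named after its values were seen, rose by 0.43 in PK7. Of the 7 endothelial markers, 5 stood above V22 in PK7 (1 called) and 5 in PK25 (0 called). The neuronal genes MAP2 (0.80 in V8, 1.71 in PK7 and 2.04 in PK19) and SNAP25 (1.33 in PK19) rose. So did KRT8 (0.55 in PK7) and CHI3L1 (3.83 in PK7, but -1.20 in V8 without a call). SOX2 fell by 0.97 in V8 and PK7 and by 1.09 in PK19. Of 13 glioma markers, PK7 called 3 higher and 4 lower (7.11% and 8.11% of all probe sets). PK19 called 1 and 4 of them (6.65% and 7.4%) and V8 1 and 3 (3.78% and 4.22%). Of 7 neuronal markers, 6 stood above V22 in PK7 (1 called) and in PK19 (2 called), and 3 in V8 (1 called). Of 7 epithelial markers, 5 stood above V22 in PK7 (1 called). The part of these clone differences in the results on the cyclin E genes was not tested.

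CUL1 and RBX1, the scaffold and the RING subunit of the ligase, were lower in PK7 than in V22, and these were the only calls among the 8 genes in any clone against V22. CCNE1 and CDK2 were not called in any clone. CCNE2 stood above V22 in PK7 and below it in PK19, and the difference between these parkin clones was called. No gene was called between the 3 parkin and the 3 vector clones.

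PK7 called 2 of the 8 genes, both lower, where 15.2% of all probe sets were called and 8.11% were called lower. V8 called 0 of 8 (background 8%), V17 0 (background 0%), PK19 0 (background 14%) and PK25 0 (background 1.37%). At an unadjusted p under 0.05 there were 4 of 8 in V8 (19.2% of all probe sets), 0 in V17 (2.71%), 4 in PK7 (25.7%), 3 in PK19 (22.6%) and 2 in PK25 (11.3%). A call means a limma adjusted p under 0.05, with Benjamini-Hochberg adjustment over all probe sets. The median difference of the 8 genes was -0.01 in PK7, -0.063 in PK19 and -0.12 in PK25, beside 0.0025, -0.00045 and 0.019 over all probe sets. Arrays that did not overlap V22 were higher for 2 and lower for 2 of the 8 genes in PK7 (15.5% and 16.9% of all probe sets), for 1 and 3 in PK19 (15.5% and 15.7%), for 0 and 3 in PK25 (7.74% and 8.51%), for 3 and 1 in V8 (12.2% each) and for 0 and 1 in V17 (5.68% and 3.03%). The parkin comparisons share the 3 V22 arrays of the second series. Nothing states that the arrays of a clone came from separate cultures. The p-values therefore measure the spread between these arrays, which may be technical.

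**Figure D1:**
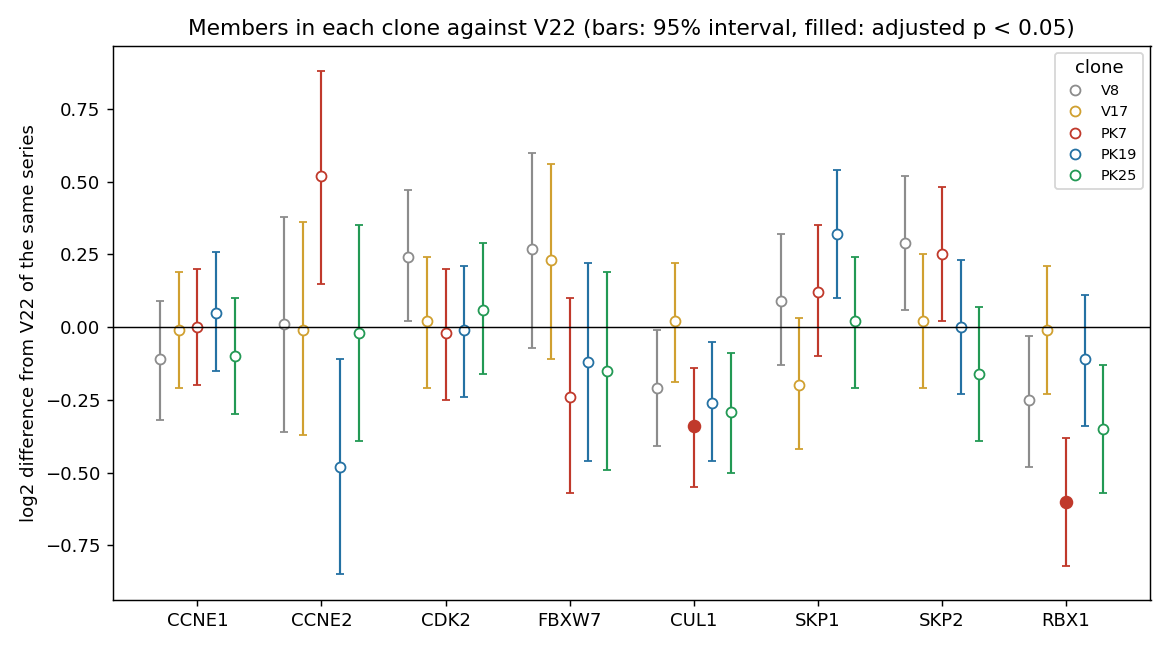
Log2 difference of each of the 8 genes (x axis) from V22 of the same array series (y axis), with 1 point per clone and bars for the 95% interval of limma; filled points have an adjusted p under 0.05. The filled points are CUL1 at -0.34 and RBX1 at -0.60, both in PK7; CCNE2 has its highest point in PK7 (0.52) and its lowest in PK19 (-0.48).

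CCNE1, the cyclin E1 gene, was between 7.80 and 8.17 on all 21 arrays. Its V22 arrays read 8.04, 8.03 and 8.04 in the second series and 7.99, 8.07 and 8.07 in the first. The PK7 arrays read 8.07, 7.86 and 8.17, the PK19 arrays 8.14, 8.03 and 8.10, and the PK25 arrays 8.02, 7.99 and 7.80. The parkin arrays lay on both sides of V22, with 5 of 9 below its lowest array and 4 above its highest. Differences from V22 were 0.00 in PK7 (95% interval -0.20 to 0.20), 0.05 in PK19 and -0.10 in PK25, and the vector clones V8 and V17 stood at -0.11 and -0.01. By clone, after the first series was moved by its V22 difference, the order was PK19 (8.09), PK7 (8.04), V22 (8.03), V17 (8.02), PK25 (7.94) and V8 (7.92), and the neighbours in this order differed by less than the spread between arrays.

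CCNE2, which encodes cyclin E2, varied most among CCNE1, CCNE2 and CDK2. The PK7 arrays read 9.68, 9.11 and 9.70, the PK19 arrays 8.58, 8.33 and 8.58, and the PK25 arrays 9.17, 8.77 and 8.93. V22 read 9.06, 8.85 and 9.02 beside them. Every PK7 array was above every V22 array and every PK19 array below, while PK25 overlapped V22. PK7 was at 9.49 ± 0.33 (SD, n = 3 arrays) and V22 at 8.98 ± 0.11, a difference of 0.52 (SE 0.17, 95% interval 0.15 to 0.88) with a limma adjusted p of 0.0522. PK19 was at 8.50 ± 0.15, a difference of -0.48 (95% interval -0.85 to -0.11, adjusted p = 0.0807), and PK25 at 8.96 ± 0.20, a difference of -0.02. The PK7 difference was 0.71 (adjusted p = 0.00904) without PK7 set 2, its lowest array, 0.43 (0.181) without set 1 and 0.42 (0.192) without set 3. It was called in 5 of 13 alternative settings. The vector clones spanned 8.60 to 9.31, with V8 at 9.00 ± 0.18, V17 at 8.98 ± 0.36 and V22 of the first series at 8.99 ± 0.18, so their means lay together while their arrays did not.

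CDK2, the kinase that cyclin E activates, was highest in the vector clone V8, whose arrays read 10.60, 10.50 and 10.64. V17 read 10.31, 10.24 and 10.52, and V22 of that series 10.35, 10.21 and 10.45. V8 lay above V22 in 3 of 3 arrays, yet the difference of 0.24 had an adjusted p of 0.21 by limma. In the second series V22 read 10.23, 10.15 and 10.21, and PK7, PK19 and PK25 differed from it by -0.02, -0.01 and 0.06. The 95% interval for PK7 ran from -0.25 to 0.20.

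**Figure D2:**
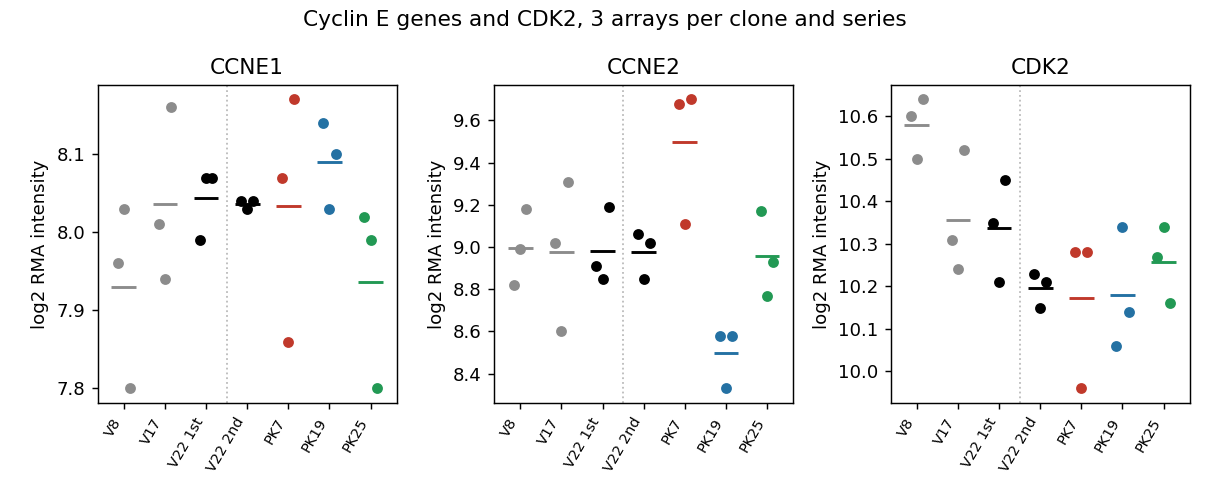
Log2 RMA intensity (y axis) of CCNE1, CCNE2 and CDK2 on each array, by clone and series (x axis); each point is 1 array, the bar is the mean of 3, and the dotted line separates the series. CCNE2 separates PK7 (9.11 to 9.70) from PK19 (8.33 to 8.58), while CCNE1 stays between 7.80 and 8.17 in all clones.

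RBX1, the RING subunit that binds the conjugating enzyme, was lower in all parkin clones than in V22 of the second series by array values, and its fall passed the test in PK7. V22 read 9.96, 9.96 and 9.99. The PK7 arrays read 9.58, 9.22 and 9.31, the PK25 arrays 9.62, 9.62 and 9.61, and the PK19 arrays 9.86, 9.76 and 9.94. All 9 parkin arrays were below all 3 V22 arrays, with PK19 set 3 closest. In PK7 RBX1 fell by 0.60 (SE 0.11, 95% interval -0.82 to -0.38), or 1.51-fold, with a limma adjusted p of 0.000446. PK25 differed by -0.35 (adjusted p = 0.138) and PK19 by -0.11 (adjusted p = 0.643). In the first series V8 read 10.17, 9.85 and 10.27 against 10.39, 10.26 and 10.40 in V22, a difference of -0.25 (adjusted p = 0.182), and V17 differed by -0.01. V22 itself gave 10.35 on its first-series arrays against 9.97 beside the parkin arrays, with no overlap but no call (adjusted p = 0.261), and RBX1 is compared here within a series.

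CUL1, the cullin scaffold, was also lower on all 9 parkin arrays than on the 3 V22 arrays of the second series, and fell by the test in PK7. V22 read 10.55, 10.46 and 10.53. The PK7 arrays read 10.27, 9.95 and 10.30, the PK19 arrays 10.12, 10.37 and 10.29, and the PK25 arrays 10.27, 10.29 and 10.11. The highest parkin array, PK19 set 2, lay below the lowest V22 array, set 5. CUL1 fell by 0.34 in PK7 (SE 0.097, 95% interval -0.55 to -0.14), or 1.27-fold, with a limma adjusted p of 0.0194. The differences were -0.26 in PK19 (adjusted p = 0.0962) and -0.29 in PK25 (adjusted p = 0.195). The PK7 call was lost without PK7 set 2 (-0.23, adjusted p = 0.123), without V22 set 4 (-0.32, 0.0733), without V22 set 6 (-0.33, 0.0643), without the set 2 arrays together with V22 set 5 (-0.26, 0.0983) and with only the PK7 and V22 arrays in the fit (adjusted p = 0.0959). Among all probe sets, 2.5% lay lower on all 9 parkin arrays than on these V22 arrays. In the first series V22 was at 10.35, against 10.52 in the second (adjusted p = 0.67, arrays apart), and V8 read 10.11, 10.11 and 10.19, below every V22 array of its series but not called (-0.21, adjusted p = 0.243).

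SKP1, the adaptor between cullin and F-box protein, was highest in PK19, with arrays at 7.30, 7.36 and 7.40. V22 read 7.10, 7.19 and 6.82 in the same series, PK7 7.25, 7.15 and 7.07, and PK25 7.11, 7.10 and 6.94. All PK19 arrays were above all V22 arrays, and the difference of 0.32 had a limma adjusted p of 0.0536. It was 0.21 (adjusted p = 0.315) without V22 set 6, the lowest V22 array, and 0.40 (0.0313) without V22 set 5, the highest. Quantile normalization (0.34, adjusted p = 0.0269) and leaving out the dimmest 30% of probe sets (0.0365) also brought it past the threshold. PK7 differed by 0.12 and PK25 by 0.02. In the first series V17 read 6.97, 6.97 and 6.79, below V22 at 7.10, 7.06 and 7.18, a difference of -0.20 that was not called.

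FBXW7, the F-box protein that recognises phosphorylated cyclin E, lay on all 21 arrays between 6.02 and 6.99. With a mean of 6.64 it was the dimmest of the 8 genes, and 55.3% of all probe sets were dimmer. V22 read 6.70, 6.70 and 6.57 in the second series, PK7 6.20, 6.67 and 6.39, PK19 6.34, 6.58 and 6.69, and PK25 6.77, 6.73 and 6.02. The parkin clones overlapped V22, with 4 of 9 arrays below its lowest and 2 above its highest. Differences were -0.24 in PK7, -0.12 in PK19 and -0.15 in PK25, none called. The PK25 value rests on set 3 (6.02), the array with the highest median, and was 0.09 without it. In the first series V8 (6.99, 6.78 and 6.91) and V17 (6.85, 6.97 and 6.74) stood above V22 (6.49, 6.64 and 6.75) by 0.27 and 0.23, also not called.

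SKP2, the F-box protein for p27 and free cyclin E, was high in 1 vector and 1 parkin clone. V8 read 9.69, 9.78 and 9.79 against 9.42, 9.37 and 9.60 in V22, a difference of 0.29 (limma adjusted p = 0.131). PK7 read 9.77, 9.43 and 9.70 against 9.41, 9.39 and 9.35, a difference of 0.25 (adjusted p = 0.156), with every PK7 array above every V22 array. PK19 (9.40, 9.45 and 9.32) overlapped V22 at a difference of 0.00. PK25 (9.09, 9.47 and 9.11) had 2 arrays below V22 and 1 above it, a difference of -0.16. The PK7 difference was 0.35 (adjusted p = 0.0482) without PK7 set 2, its lowest array, 0.18 (0.428) without set 1 and 0.21 (0.342) without set 3.

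**Figure D3:**
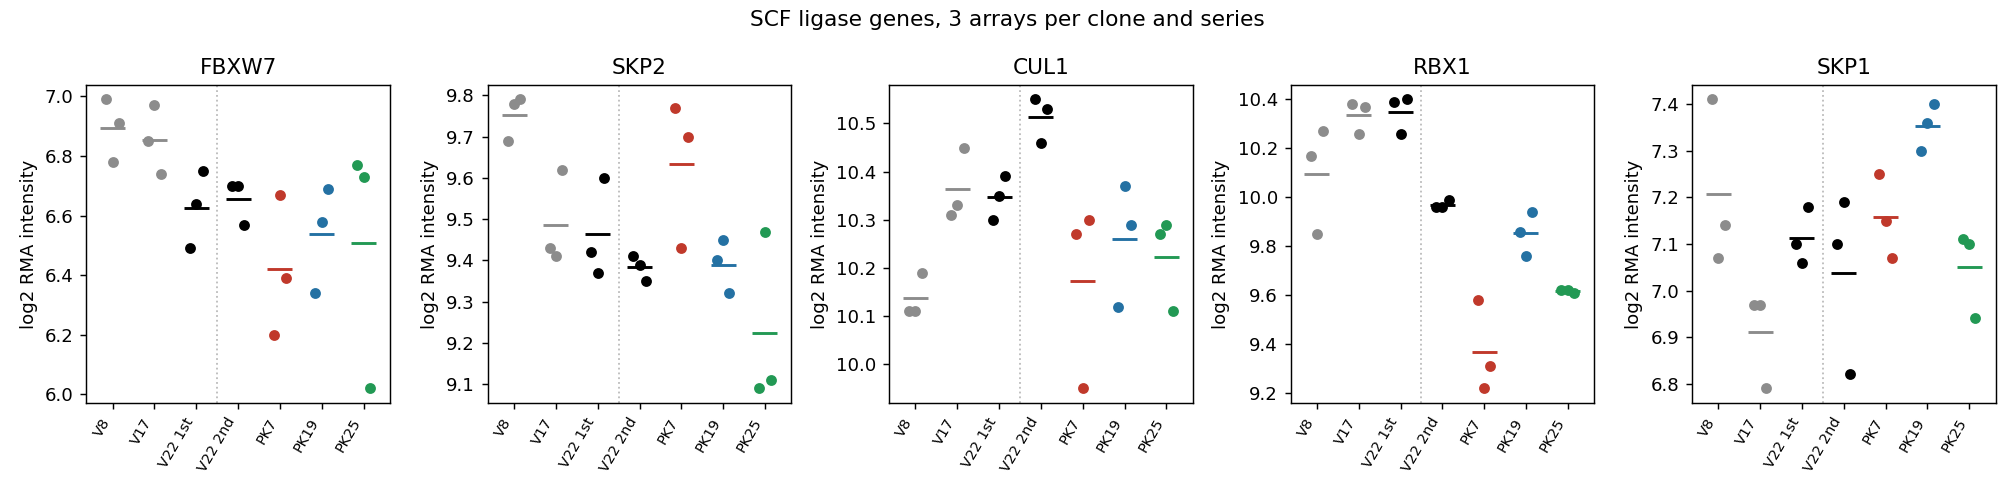
Log2 RMA intensity (y axis) of the 5 ligase genes on each array, by clone and series (x axis); each point is 1 array, the bar is the mean of 3, and the dotted line separates the series. RBX1 and CUL1 lie below V22 of the second series on all 9 parkin arrays, while FBXW7, SKP2 and SKP1 overlap it in at least 1 parkin clone.

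Because a call in one clone and not in another does not show that they differ, the parkin clones were compared with each other. The F test over PK7, PK19 and PK25 called 3 of the 8 genes, where 23.6% of all probe sets were called: CCNE2 (adjusted p = 0.000796), RBX1 (0.00618) and SKP2 (0.0267). CCNE2 was 1.00 higher in PK7 than in PK19 (SE 0.17, 95% interval 0.63 to 1.36), a doubling, with a limma adjusted p of 0.00036 (background 15.8%). This call held in 10 of 10 alternative settings, with differences from 0.88 to 1.10. CCNE2 was also 0.54 higher in PK7 than in PK25 (adjusted p = 0.0465, background 13.9%), a call lost without set 1 of the parkin clones (0.55, adjusted p = 0.141) or set 3 (0.42, 0.3), and with arrays centred on their medians (0.53, 0.068). PK19 against PK25 stood at -0.46 (adjusted p = 0.0904, background 14.9%).

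RBX1 was 0.48 lower in PK7 than in PK19 (limma adjusted p = 0.00289), and without set 3 the difference was -0.41 with an adjusted p of 0.0673 and an F test adjusted p of 0.119. SKP2 was 0.41 higher in PK7 than in PK25 (adjusted p = 0.0157). Without set 2 the SKP2 difference was 0.63 (adjusted p = 0.000534), without set 1 it was 0.27 (0.269) and without set 3 it was 0.31 (0.185), so single sets decide this call. The F test of SKP2 had adjusted p-values of 0.367 without set 1, 0.295 without set 3, 0.179 with a replicate block for the set number and 0.066 with arrays centred on their medians. SKP1 differed by 0.30 between PK19 and PK25 (adjusted p = 0.0663). CCNE1, CDK2, FBXW7 and CUL1 were not called by the F test.

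The 50 nearest genes on the chromosome with a mean log2 value of at least 7 were read in the same way, to show how far each of the 8 genes moved with its surroundings. Around RBX1 on chromosome 22 (MICALL1 to TTLL12) the median difference from V22 was -0.57 in PK7, with 46 of 50 genes lower, -0.28 in PK25 (47 of 50 lower), -0.19 in V8 (45 of 50 lower) and -0.01 in PK19 (28 of 50 lower). RBX1 itself stood at -0.60, -0.35, -0.25 and -0.11 in these clones. Around CUL1 on chromosome 7 (CNOT4 to RHEB) the median was -0.23 in PK7 (40 of 50 lower), -0.12 in PK19 (37 of 50 lower), -0.28 in PK25 (47 of 50 lower) and -0.15 in V8 (43 of 50 lower). With each array's neighbour median subtracted, RBX1 in PK7 was at -0.04 (limma adjusted p = 0.824) and CUL1 in PK7 at -0.10 (adjusted p = 0.479), so neither call remained. RBX1 between PK7 and PK19 was then at 0.06, with an F test adjusted p of 0.828.

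CCNE2 kept its difference: around it on chromosome 8 (ZFAND1 to BAALC) the median was 0.12 in PK7, -0.01 in PK19 and -0.02 in PK25. With neighbours subtracted it was 0.88 higher in PK7 than in PK19 (limma adjusted p = 0.000355), 0.41 above V22 in PK7 (0.0617) and 0.46 below V22 in PK19 (0.0393), while PK7 against PK25 was no longer called (0.41, 0.0727). SKP2 on chromosome 5 (CMBL to MOCS2) had neighbours at -0.07 in PK7 and -0.22 in PK25, with 43 of 50 lower in PK25. Subtraction put it 0.34 above V22 in PK7 (adjusted p = 0.0146) and 0.28 above PK25 (0.0466). CCNE1 on chromosome 19 (KXD1 to HAUS5) had neighbours at -0.24 in PK7, with 41 of 50 lower, while its own difference was 0.00. CDK2 on chromosome 12 (MYG1 to LRP1) had neighbours at 0.17 in V8, with 7 of 50 lower, beside its own 0.24. Around FBXW7 on chromosome 4 the median was -0.28 in PK7, with 41 of 50 lower, beside its own -0.24. Gene copy number was not measured, and its part in these values was not tested.

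**Figure D4:**
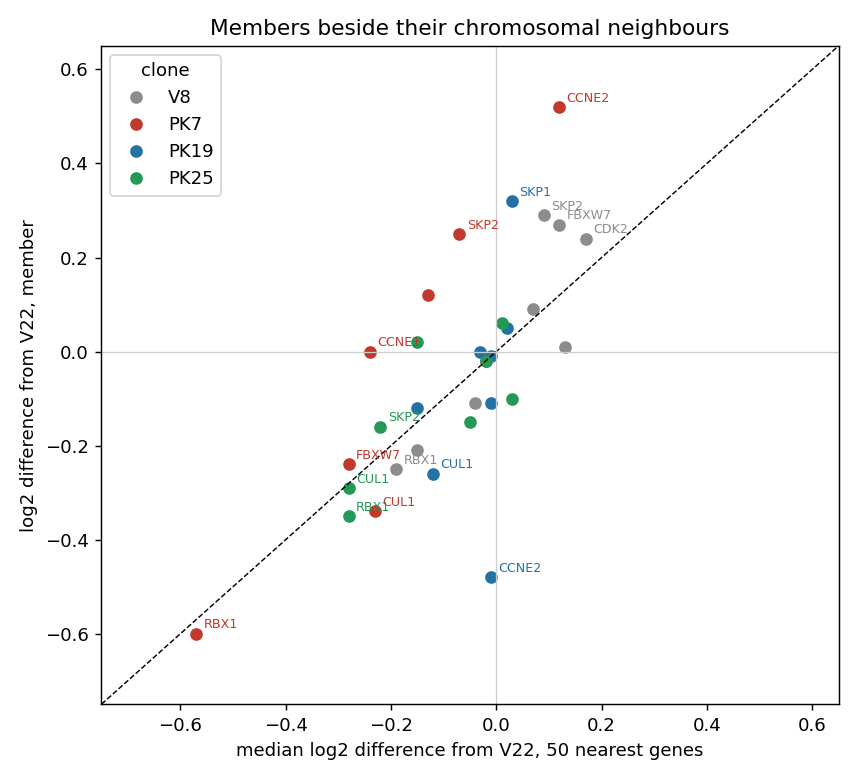
Log2 difference from V22 of each of the 8 genes (y axis) against the median log2 difference of its 50 nearest genes (x axis), with 1 point per gene and clone (V8, PK7, PK19 and PK25) and a dashed line where both are equal. RBX1 (PK7 at -0.60 and -0.57) and CUL1 lie near the line, while CCNE2 in PK7 (0.52 against 0.12) and in PK19 (-0.48 against -0.01) lies far from it.

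The parkin and vector clones were compared over 6 clone means, after the first series was moved by the V22 difference between series. Limma called 0 of the 8 genes (background 0.00371%), and 2 had an unadjusted p under 0.05, against 14.1% of all probe sets. For FBXW7 the clone means were 6.42 in PK7, 6.54 in PK19 and 6.51 in PK25, against 6.93 in V8, 6.88 in V17 and 6.66 in V22. All parkin means were below all vector means, at 6.49 ± 0.061 against 6.82 ± 0.14 (SD, n = 3 clones each). The difference was -0.33 (SE 0.094, 95% interval -0.56 to -0.11, limma adjusted p = 0.306). This separation rests on PK25 set 3 (6.02), since the other PK25 arrays, 6.77 and 6.73, lay above the V22 mean. For CUL1 the means were 10.17, 10.26 and 10.22 in PK7, PK19 and PK25, against 10.31, 10.53 and 10.52 in V8, V17 and V22. These did not overlap either, at 10.22 ± 0.044 against 10.45 ± 0.13, a difference of -0.23 (SE 0.086, 95% interval -0.44 to -0.03, limma adjusted p = 0.333). Before the series was moved, V8 stood at 10.14, below every parkin mean, so the CUL1 separation rests on the series adjustment. Lower clone means without overlap were found for 2 of the 8 genes and for 10.9% of all probe sets, and higher ones for 0 of the 8 and 12.3%.

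Without the adjustment for the series CUL1 stood at -0.09 and FBXW7 at -0.31, and against only the first-series vector arrays CUL1 stood at -0.07 and FBXW7 at -0.30. With neighbours subtracted FBXW7 was at -0.15 and CUL1 at -0.06. With V17 and V22 averaged and counted once, since limma did not separate them, FBXW7 was at -0.36, CUL1 at -0.20 and RBX1 at -0.22. RBX1 differed by -0.27 (95% interval -0.60 to 0.07, limma adjusted p = 0.42), and its clone means overlapped since V8 (9.72) lay below PK19 (9.85). Without PK7 RBX1 stood at -0.14. CCNE2 differed by 0.01 with a wide interval (-0.55 to 0.56), since its parkin clones spread at 8.98 ± 0.50 and its vector clones at 8.98 ± 0.0085. CCNE1 differed by 0.03 (95% interval -0.16 to 0.21), CDK2 by -0.08 (-0.29 to 0.14), SKP1 by 0.19 (adjusted p = 0.469) and SKP2 by -0.07 (adjusted p = 0.803).

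The genes whose values followed each of the 8 most closely were found by Pearson's r over the 21 arrays, each relative to V22 of its series, among about 8718 genes with a mean of at least 7. Arrays of a clone share that clone, so r describes 6 clones rather than 21 independent samples. RBX1 was closest to the replicative helicase gene CDC45 (0.965), the histone gene H3C11 (0.953) and the mitochondrial ribosome gene MRPL40 (0.941). CDC45 and MRPL40 lie on chromosome 22 like RBX1. CUL1 was closest to NCAPG2 (0.937), a condensin gene, EZH2 (0.922), a histone methyltransferase gene, and RBM28 (0.919), all on chromosome 7 like CUL1. EZH2 stood at -0.63 in PK7, -0.67 in PK19 and -0.54 in PK25.

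CCNE2 was closest to PABIR1 (0.920), PPP6C (0.868), a protein phosphatase gene, and EIF2AK4 (0.863), none on its chromosome. CDK2 was closest to FOXM1 (0.874), a mitotic transcription factor gene, SYTL3 (0.856) and SENP1 (0.854), of which FOXM1 and SENP1 share chromosome 12 with it. For FBXW7 these were SNORA6 (0.868), ERBIN (0.808) and PAIP1 (0.805), and for SKP2 ERICH1 (0.860), PSME3IP1 (0.841) and ACTR8 (0.840). CCNE1 was closest to LMTK2 (0.819), SNX7 (0.818) and GNAI3 (0.782), and SKP1 to PANK2 (0.783), CHN1 (0.771) and ZNF503 (0.765). Among the 8 genes themselves the highest r was 0.748, between CUL1 and RBX1, and CCNE1 with CCNE2 gave 0.167.

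The genes that act on, beside and below the ligase were read from 10 lists, and none of their genes was called between parkin and vector clones. Counts of called genes are given against V22, where 7.11% of all probe sets were called higher and 8.11% lower in PK7, 6.65% and 7.4% in PK19, 3.78% and 4.22% in V8, and 0.427% and 0.939% in PK25. V17 had 0 calls in every list. Of 16 cyclin E-CDK2 regulators, PK19 called 2 higher and 3 lower, PK7 1 lower, V8 1 higher and PK25 0. WEE1, the kinase that inhibits CDKs, fell by 0.53 in PK7 and 0.69 in PK19, and CCNH, a subunit of the CDK-activating kinase, rose by 0.42 in PK19. Of 14 cyclin E-CDK2 substrates, PK7 called 2 higher and 1 lower, and PK19, PK25 and V8 1 lower each. CDC6, which licenses replication origins, fell by 0.61 in PK19, and the centrosome gene CCP110 rose by 0.51 in PK7. The median of these substrates was -0.19 in PK7, -0.095 in PK19 and -0.14 in PK25, beside 0.0025, -0.00045 and 0.019 over all probe sets. The medians of the other lists in PK7 ran from -0.19 (conjugating enzymes) to 0.099 (SKP2 substrates).

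Of 18 FBXW7 substrates, V8 called 2 higher and 3 lower, PK7 1 higher and 2 lower, PK19 2 higher and 2 lower, and PK25 1 higher. NFKB2, an NF-kappaB subunit gene, rose by 0.53 in V8, 0.49 in PK7 and 1.21 in PK19. SREBF2, the regulator of cholesterol synthesis genes, fell by 0.63 in V8 and stood at -0.66 in PK25 without a call. Of 12 SKP2 substrates, PK7 called 3 higher, PK19 3 higher, PK25 1 lower and V8 0. TOB1, an antiproliferative gene, rose by 0.90 in PK7 and 0.50 in PK19, and the phosphatase gene DUSP1 rose by 0.85 in PK19.

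Of 59 other F-box proteins, PK7 called 7 higher and 5 lower, PK19 5 higher and 3 lower, V8 4 higher and 1 lower, and PK25 3 lower. FBXO32, the F-box protein known as atrogin-1 in muscle, rose by 2.88 in PK7 (10.48 against 7.61 in V22, limma adjusted p = 6.94e-09) and by 0.68 in PK19. FBXO25 rose by 0.38 in V8, 0.68 in PK7 and 0.73 in PK19. Of 8 genes for other cullins and a RING partner, V8 called 1 higher and 3 lower, PK7 1 lower and PK19 3 lower, and PK25 0. CUL9, a cullin that binds p53, fell by 0.41 in V8, 0.63 in PK7 and 0.45 in PK19, and CUL2, the scaffold of the VHL ligase, rose by 0.51 in V8.

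Of 11 genes of the neddylation and CAND cycle, which switches cullins on and exchanges their F-box proteins, PK7 and PK19 called 1 higher each, and V8 and PK25 0. These were DCUN1D3 in PK7 (0.45) and DCUN1D2 in PK19 (0.51). Of 10 COP9 signalosome genes, whose complex removes NEDD8 from cullins, PK7 called 1 in each direction, V8 1 in each direction, PK19 1 higher and PK25 0. COPS7A rose by 0.26 in V8, 0.29 in PK7 and 0.48 in PK19, and COPS6 fell by 0.35 in PK7. Of 5 conjugating enzymes, UBE2G2 fell by 0.45 in PK7, and V8, PK19 and PK25 called 0. Of 12 genes for degron kinases, deubiquitinases and subunits of the phosphatase PP2A, PK7 called 1 higher and 2 lower, PK19 4 lower, V8 1 lower and PK25 0. The V8 call was a PP2A subunit gene, PK7 and PK19 also called such genes lower, and no deubiquitinase gene was called. PPP2R5D, a regulatory subunit of the phosphatase PP2A, fell by 0.69 in V8, 0.97 in PK7 and 0.78 in PK19, and the kinase gene PLK2 rose by 1.59 in PK7.

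**Figure D5:**
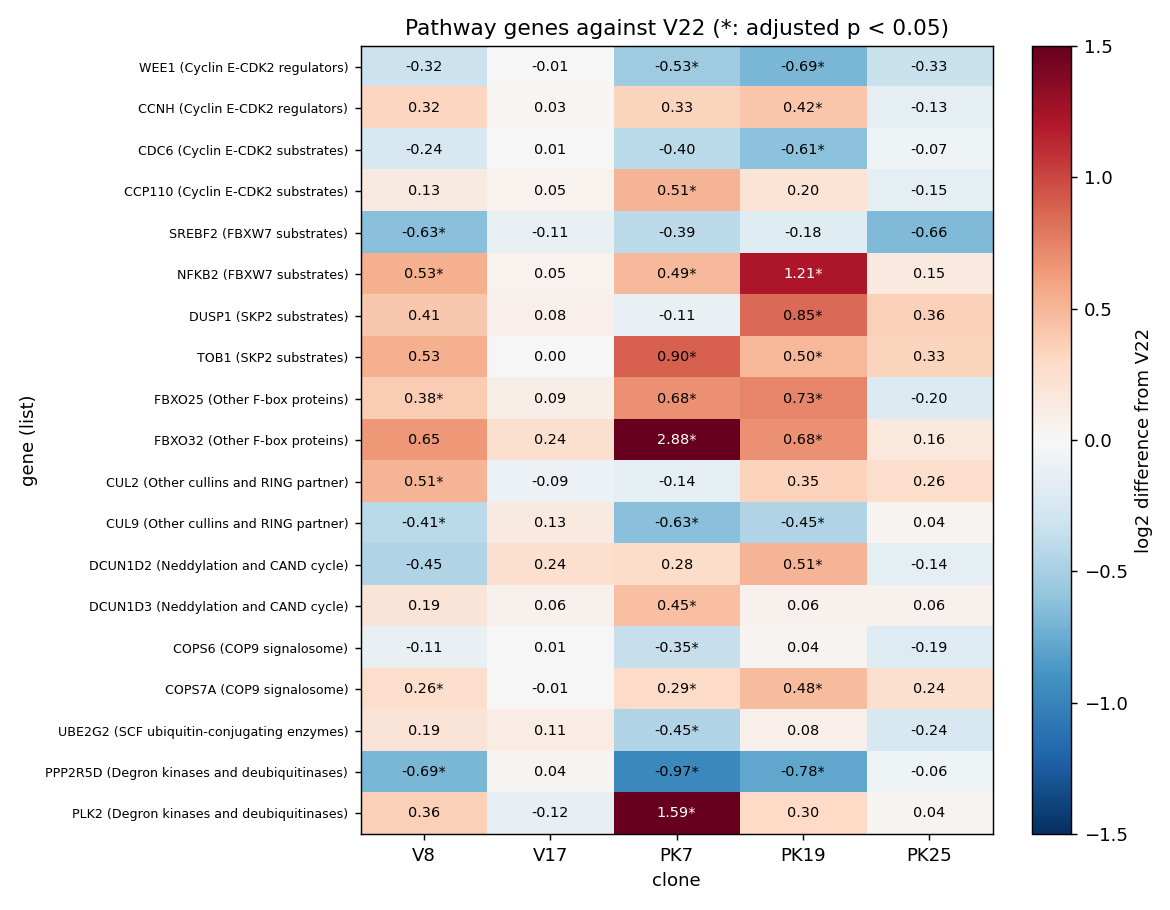
Log2 difference from V22 of the same series for the 19 named pathway genes (rows, with their list) in each clone (columns); colour runs from blue (lower) to red (higher) and is saturated beyond 1.5 in size, numbers give the difference, and a star marks an adjusted p under 0.05. FBXO32 (2.88) and PLK2 (1.59) in PK7 stand highest, PPP2R5D and CUL9 are starred and lower in V8, PK7 and PK19, and V17 has no star.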

How the data were processed

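Affymetrix whole-transcript gene arrays were run on total RNA of 12 vector and 9 parkin arrays. The authors deposited RMA intensity values, which are linear. The method is given per the submitters' processing notes, with no version, and joint normalization is not stated. They were turned into log2 values, with 0 missing. The number of arrays limits the precision. Symbols came from the array's annotation table (1 symbol for 19305 probe sets, several for 1750, none listed for 5892), and neighbours from RefSeq.

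Limma 3.58.1 (R 4.3.3; lmFit, eBayes) was fitted to 7 clone-by-series means over 21 arrays, and to 6 clone means for parkin against vector, after moving the first series by the V22 difference. P-values were adjusted by Benjamini-Hochberg over 26947 probe sets and called under 0.05. The fit was also run on simulated data, but that outcome, and with it the power of the fit, is not reported here. The series and their order were read from file prefixes, an assumption. From each list, up to 2 genes called in at least 1 clone with the smallest mean rank of absolute difference were named. The 8 genes, lists and alternatives were chosen with earlier results of these data known. Same-set deviations from the clone means had r of 0.0591 to 0.216 in the first series (-0.141 to 0.0533 for different sets, all lower) and -0.0917 to 0.381 among parkin arrays (-0.365 to 0.323). Not every same-set pair passed 0.1, so the arrays were not treated as paired, although set number did separate the pairs in the first series. A replicate block for the set number was run as an alternative.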

Additional observations from a re-analysis of the deposited data

Results flagged for a closer look

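CCNE2 differed between parkin clones that share the same introduced gene. PK7 was 1.00 above PK19 (limma adjusted p = 0.00036, PK7 higher in 3 of 3 arrays) and 0.54 above PK25 (limma adjusted p = 0.0465). The PK7 and PK25 arrays overlapped, and the call against PK25 held in 6 of 10 alternative settings. RBX1 was at -0.48 in PK7 against PK19 (limma adjusted p = 0.00289), and at 0.06 once the neighbouring genes were subtracted. SKP2 was 0.41 higher in PK7 than in PK25 (limma adjusted p = 0.0157). Its arrays overlapped between these clones, and the call held in 7 of 10 alternative settings.

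Among the 6 V22 arrays, set 6 stood apart for SKP1 at 6.82, with 0.652 of the whole range between it and the nearest array. Set 3 stood apart for SKP2 at 9.60, with 0.737 of the range. Chance gives such a gap in about 1 in 20 groups, and 8 genes were looked at. Without set 6, SKP1 in PK19 was at 0.21 above V22.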

How the results depend on the processing

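Alternatives covered normalization, variance model, a filter on dim probe sets, the arrays used, the set number as a replicate block and subtraction of the 50 neighbouring genes (for differences among parkin clones, chosen after seeing the data). Each of the 8 genes has 1 probe set, so averaging probe sets gave no other value. Of single values under these settings, 614 kept direction and side of the threshold, 20 gained a call, 21 lost one and 53 changed sign. Of counts of called genes, 114 stayed within 1.5 times the reported count, 3 against 2 included, and 22 did not. PK19 against V22 gave 1 with quantile normalization, without the dimmest 30%, without set 2 arrays and V22 set 5, with the compared arrays only and with neighbours subtracted (0 to 1 leaving out 1 array). PK19 against PK25 gave 1 under the same settings apart from the compared arrays, and 1 with the replicate block. PK7 against PK25 gave 1 with median centring and with the replicate block (0 to 2 leaving out a set). PK7 against V22 gave 1 with only the compared arrays and with neighbours subtracted. It gave 3, as CCNE2 passed, with quantile normalization (limma adjusted p = 0.024), trended and robust variance (0.0415) and without the dimmest 30% (0.0363). Without set 2 arrays and V22 set 5 it also gave 3, but these were RBX1, CCNE2 (0.012) and SKP2 (0.35, 0.0291). CUL1 lost its call in that setting (-0.26, 0.0983). Leaving out an array gave 1 to 3. Leaving out a set gave 1 to 3 for PK7 against PK19 and for the F test. Parkin against vector gave 1 with the replicate block over arrays (RBX1 at -0.65, limma adjusted p = 0.000519). V22 of the second series is not used there, so vector and parkin arrays share no series and parkin cannot be separated from series. Arrays, not clones, are the units of that fit. For RBX1, V22 alone stood 0.38 higher on its first-series arrays (limma adjusted p = 0.261). The RBX1 clone means after the series adjustment differed by -0.27 (limma adjusted p = 0.42). The arrays were not treated as paired, and no block was possible for parkin clones against V22, which share no set number.

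All but 1 of the sign changes were in differences that had not been called; the exception was RBX1 between PK7 and PK19, called at -0.48 and at 0.06 with neighbours subtracted. With quantile normalization CDK2 was at 0.02 in PK7 and PK19, and CCNE2 at 0.02 in PK25. With median centring CCNE1 was at -0.05 in PK7, SKP2 at -0.02 in PK19, SKP1 at -0.02 in PK25, and parkin against vector at -0.01 for CCNE1 and -0.03 for CCNE2. Without set 2 arrays and V22 set 5, CCNE2 was at -0.05 in V8 and 0.01 in PK25, CDK2 at 0.06 in PK7 and 0.00 in PK25, and SKP2 at -0.02 in PK19. With neighbours subtracted CCNE2 was at -0.13 in V8 and 0.00 in PK25, FBXW7 at 0.03 in PK7 and 0.01 in PK19, CDK2 at 0.00 in PK19, SKP2 at 0.06 in PK25 and 0.08 for parkin against vector. For parkin against vector, CCNE2 was at 0.00 without the series adjustment, with first-series vector arrays alone and with the replicate block. In the second series alone CCNE1 was at -0.01, CDK2 at 0.01 and SKP2 at 0.03. Leaving out single arrays gave CCNE1 in PK7 -0.07 to 0.09, CCNE2 in PK25 -0.13 to 0.07 and in V8 -0.08 to 0.11, CDK2 in PK19 -0.09 to 0.05 and in PK7 -0.07 to 0.09, FBXW7 in PK25 -0.28 to 0.09, SKP1 in PK25 -0.09 to 0.09 and in V8 -0.01 to 0.16, and SKP2 in PK19 -0.03 to 0.04. Leaving out single clones gave, for parkin against vector, CCNE1 -0.01 to 0.07, CCNE2 -0.25 to 0.25, CDK2 -0.12 to 0.00 and SKP2 -0.18 to 0.02. The causes of these changes were not tested.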
